A study of Mus musculus with 28 samples.

Results

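Homozygous loss of Myt1l in the embryonic mouse cortex is described here from 4 homozygous mutant (Hom) and 6 wild-type (WT) RNA sequencing libraries, which make up 10 of the 16 E14.5 cortex libraries and 10 of the 28 libraries in the series. They were picked by the genotype in the sample titles, and the columns of the expression table were matched to them by the animal identifier in the sample descriptions. Hom embryos carry the mutation on both alleles of a Myt1l knockout line and WT embryos carry none. All are embryos at E14.5 (E stands for embryonic day), the labels name no agent, and each library has its own animal identifier. By label, 3 of 4 Hom and 5 of 6 WT embryos were female, and embryos are named by the letter of their labelled sex and a number (F01, M02). Identifiers begin with 14424 in 3 Hom and 4 WT libraries and with 14526 in 1 Hom and 2 WT libraries, and the labels do not say what this prefix stands for. How the allele was made, and the strain, are not given in the labels used here.

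MYT1L is a zinc-finger transcription factor of neurons that represses non-neuronal genes and recruits SIN3 and histone deacetylase corepressors. In the cortex it appears as progenitors leave the cell cycle and become neurons. At E14.5 the cortex holds dividing radial glia beside the ventricle, intermediate progenitors and newly born projection neurons, and interneurons are arriving from the ventral forebrain. Dividing progenitors are known for a high rate of glycolysis, the conversion of glucose to pyruvate and lactate.

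Values are CPM, which are counts scaled to a common library total, recovered from the deposited log2 table. That table holds numbers that had been scaled and adjusted for unwanted variation, so the depth of each library is unknown. Differences are Hom minus WT on the scale log2(CPM + 0.5), fitted with limma, and a gene is said to have risen or fallen when its Benjamini-Hochberg adjusted p was under 0.05. Among the 16 libraries, the Y-linked check went against the labelled sex in 2 heterozygous libraries and in 0 Hom or WT libraries. The first principal component of the 16 libraries held 15.6% of the variance. It placed the 4 Hom libraries (2.54 to 15.7) above the 6 WT libraries (-23.4 to -7.49). The heterozygous libraries ran from -7.48 to 21.3, both below and above the Hom libraries. The authors' adjustment can narrow the spread within groups, so the separation of Hom from WT on this component may be overstated. Because these are whole pieces of tissue, fewer cells of a type and less RNA per cell cannot be told apart.

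Myt1l itself checked the labels. It measured 18.7 CPM in Hom F01, 23.3 in F04, 18.1 in F09 and 20.8 in M02, and the WT libraries ran from 45.9 to 66.6 CPM with a median of 54.4. Each Hom library lay below each WT library. The Hom mean was 36.4% of the WT mean, a difference of -1.43 (SE 0.16, limma adjusted p = 1.1e-04). In GRCm38 the gene lies on the plus strand of chromosome 12, between positions 29528384 and 29923213. The table gives 1 value per gene, so the remaining RNA cannot be assigned to particular exons.

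Across the 12429 genes tested, 401 rose (3.23%) and 543 fell (4.37%), together 944 or 7.60%. In 1231 genes (9.90%) the 4 Hom and 6 WT libraries did not overlap, with Hom higher in 596 (4.80%) and lower in 635 (5.11%). The authors' adjustment can narrow the spread within groups, so separation here and below may be overstated by an unknown amount. Most differences were small: 234 called genes differed by more than 0.5 on the log2 scale. The number of calls rests on which libraries were fitted and on how the spread was modelled. It was 1159 without the 2 heterozygous libraries that went against their labelled sex, and 1379 with only Hom and WT libraries. It fell to 511 when the 2 directions that the authors' adjustment had removed were counted as covariates, and to 0 when, in addition, the variance was modelled without trend and robust settings (limma, with 2255 genes at an unadjusted p under 0.05). Median centring changed the balance from 401 higher and 543 lower calls to 294 and 746, and a correction for GC content and length changed it to 231 and 555.

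**Figure D1:**
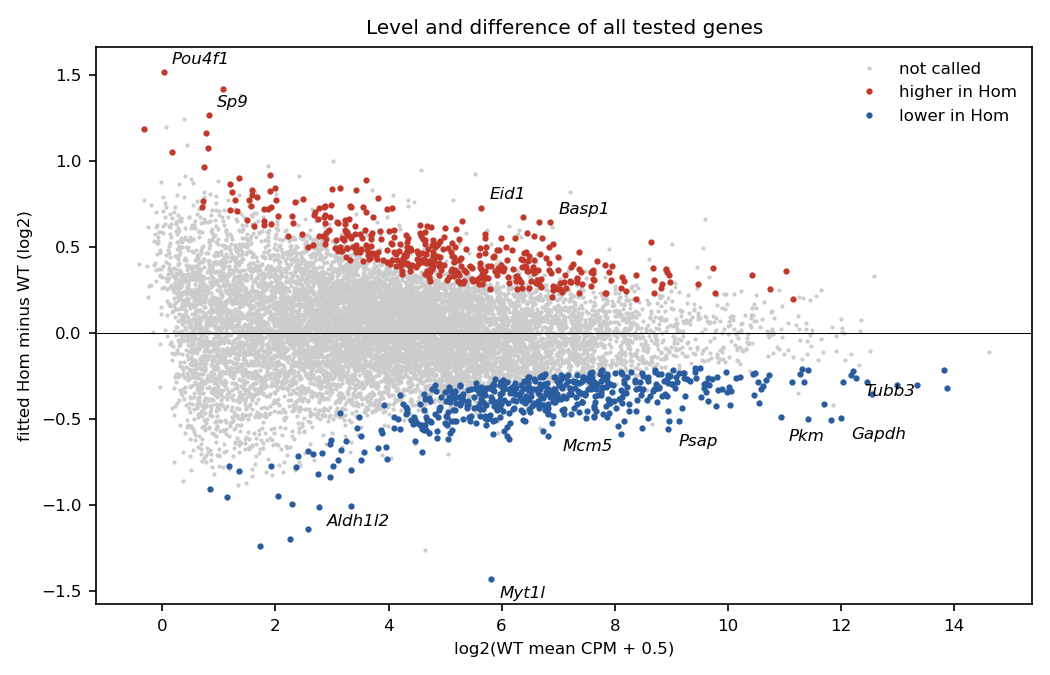
Each point is 1 of 12429 tested genes, with the WT level on the x axis, log2(WT mean CPM + 0.5), and the fitted Hom minus WT difference (log2) on the y axis. Red points are the 401 genes that rose and blue points the 543 that fell, and the fallen genes lie mostly at high levels, with Myt1l at -1.43.

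Glycolysis had the largest share of called genes among the 43 gene lists examined. Of its 21 tested genes 13 fell and 0 rose, against 4.37% falling among all genes, and 20 of 21 had a fitted difference below 0. The list's median difference was -0.36, and that of all genes was 0.02. The glycolysis list was singled out after the values of all lists had been seen, and all of its called members are given for that reason rather than by the naming rule. Summed over the list, CPM came to 13014 in Hom F01, 13044 in F04, 12138 in F09 and 12273 in M02, and to between 16144 and 18503 in the WT libraries.

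The sequences before the start sites of the 4 fallen glycolysis genes with the lowest p are shown because these genes moved together. Each runs over the 150 bases before the RefSeq start site, 5′ to 3′ on the gene's strand (GRCm38.p6). Capitals mark ACGTG or its reverse complement CACGT, a form of the core letters bound by hypoxia-inducible factors.
Pkm, chr9:59656426-59656575, plus strand: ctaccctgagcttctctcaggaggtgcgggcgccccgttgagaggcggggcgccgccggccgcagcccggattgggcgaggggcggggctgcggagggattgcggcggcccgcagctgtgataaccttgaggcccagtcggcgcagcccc
Eno1, chr4:150236558-150236707, plus strand: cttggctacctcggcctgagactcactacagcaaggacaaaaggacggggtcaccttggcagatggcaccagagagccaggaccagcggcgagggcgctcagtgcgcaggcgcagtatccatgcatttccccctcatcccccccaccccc
Ldha, chr7:46845654-46845803, plus strand: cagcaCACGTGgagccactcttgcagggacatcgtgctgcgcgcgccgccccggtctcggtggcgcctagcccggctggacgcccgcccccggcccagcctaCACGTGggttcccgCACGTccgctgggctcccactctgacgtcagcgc
Gapdh, chr6:125165774-125165923, minus strand: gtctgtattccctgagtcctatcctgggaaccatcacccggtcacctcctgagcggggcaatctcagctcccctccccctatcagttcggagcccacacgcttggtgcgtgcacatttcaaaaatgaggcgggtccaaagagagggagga
Of these 4 sequences, that of Ldha alone holds ACGTG or CACGT. Among the 13 fallen genes, 3 hold either of these within 150 bases, namely Ldha, Pgk1 and Pfkm. GCGTG, a related motif also searched, is not marked, and the Gapdh sequence holds it.

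In all, 10 motifs were searched on both strands in windows of 250 bases before to 50 after the start, which were matched for 9819 tested genes and for all 13 fallen glycolysis genes. ACGTG was in 25.8% of all windows, 25.9% of those of risen genes, 141 of the 440 of fallen genes and 5 of the 13. AAGTT, the core letters bound by MYT1 family zinc fingers, was in 31.4% of all windows, 22.6% of those of risen genes, 35.9% of those of fallen genes and 6 of the 13. These short motifs overlap longer ones that were searched too: AAAGTT was in 10.7% of all windows and 2 of the 13, AAGTTT in 10.7% and 1, and CACGTG in 9.99% and 2. GCGTG was in 52.4% of all windows and 6 of the 13, CCAAT in 39.4% and 5, and GAAA followed after any 3 bases by AAG in 6.94% and 1. TGACGTCA was in 3.36% and 1, and TGATGCAA in 0.499% and 0. GC content differed between risen and fallen genes, as given further on, and its part in these shares was not tested.

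The last steps of the pathway held its clearest differences. Pkm, pyruvate kinase, measured 2502 CPM in Hom F01, 2529 in F04, 2547 in F09 and 2589 in M02, and between 3397 and 3913 CPM in WT (median 3550). The groups did not overlap and the Hom mean was 70.5% of the WT mean, a difference of -0.51 (SE 0.06, limma adjusted p = 1.1e-04). Eno1, the enolase of most tissues, measured 1959, 1988, 1879 and 1890 CPM in the same Hom libraries and 2501 to 2987 CPM in WT, a difference of -0.50 (SE 0.07). The neuronal enolase Eno2 had a mean of 19.1 CPM in Hom (SD 2.63, n = 4) against 24.6 CPM in WT (SD 3.23, n = 6), and its groups overlapped (difference -0.38). It passed the test in 12 of 26 alternative fits. Ldha, which makes lactate from pyruvate, ran from 1054 to 1182 CPM in Hom and from 1382 to 1621 CPM in WT, again with no overlap (-0.41, SE 0.07). Ldhb, the other lactate dehydrogenase subunit, fell by 0.34, with Hom F01 at 953 CPM inside the WT range that began at 929 CPM.

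The middle of the pathway moved the same way. Gapdh measured 3045, 3121, 2655 and 2758 CPM in Hom F01, F04, F09 and M02 and 3755 to 4524 CPM in WT (-0.50, SE 0.08, limma adjusted p = 0.0018). As Gapdh is often used to normalise other assays, its fall is given here with the values of every Hom library. Pgk1, phosphoglycerate kinase, ran from 628 to 654 CPM in Hom and from 739 to 842 CPM in WT (-0.29). Tpi1, triose phosphate isomerase, ran from 691 to 739 CPM in Hom and from 837 to 953 CPM in WT (-0.33). Of the aldolases, Aldoc fell by 0.42 with no overlap between groups and Aldoa by 0.26, with Hom F01 at 651 CPM above the lowest WT library at 641 CPM. Pgam1, phosphoglycerate mutase, had a difference of -0.13 that did not pass.

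Among the first steps, Gpi1, glucose phosphate isomerase, fell by 0.36 and Pfkm, the muscle form of phosphofructokinase, by 0.39. Pfkp, the platelet form, had the largest fitted difference of the list at -0.80, with 4.83 to 5.74 CPM in Hom and 8.94 to 10.7 CPM in WT. The liver form Pfkl did not pass (-0.29, adjusted p = 0.076), nor did the hexokinases Hk1 (-0.43, adjusted p = 0.069) and Hk2 (-0.03, adjusted p = 0.915). The glucose transporters Slc2a1 (-0.26) and Slc2a3 (-0.41) and the pyruvate dehydrogenase kinase Pdk1 (-0.10) did not pass either. The lactate transporter Slc16a1 was the 1 tested gene fitted above 0, at 0.41, and did not pass (adjusted p = 0.060). Slc16a3 was in the table and too low to be tested.

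**Figure D2:**
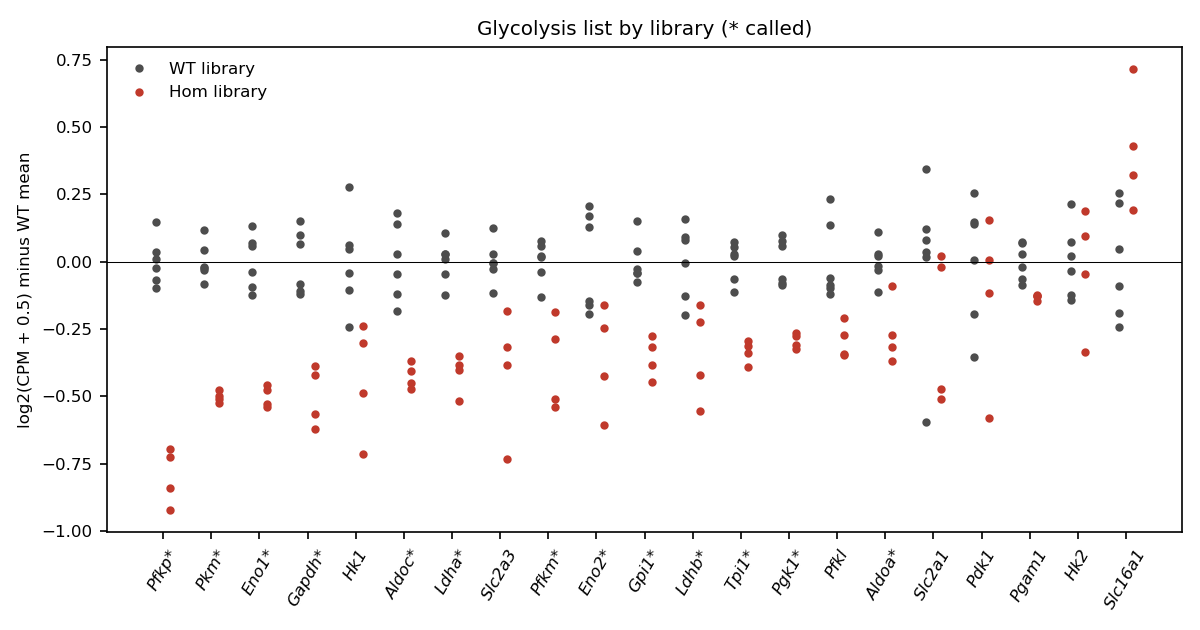
For the 21 tested glycolysis genes (x axis), each library's log2(CPM + 0.5) is plotted as its distance from the WT mean of that gene (y axis), with WT libraries in grey, Hom libraries in red and an asterisk on called genes. In Pkm, Eno1, Ldha, Tpi1 and Pgk1 the 4 red points lie together below all grey points, and Slc16a1 at the right is the gene fitted above 0.

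The fall in glycolysis was counted again under other settings. Between 7 and 16 members fell in 26 alternative fits chosen at the outset. There were 12 with the removed directions as covariates, 12 with the GC and length correction and 7 within the libraries of prefix 14424. Leaving out Hom F01 and M02, the libraries with the highest summed interneuron genes, also gave 7, and none passed where no gene of the table did. Abundant genes fell more often in general: in the highest of 5 bins of WT level 14.4% of all genes fell, and 11 of the 13 glycolysis genes in that bin did. In the 4th GC bin 8.62% of all genes fell, and 8 of 11 glycolysis genes there did. The parts of level and GC content in these falls were not tested.

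The called shares of the hypoxia and oxidative phosphorylation lists, 10.0% and 10.3%, were near the 7.60% of all genes. Of 20 tested hypoxia response genes 1 rose and 1 fell (median -0.06): Mxi1, a MYC antagonist, rose by 0.41, and P4ha2, a collagen prolyl hydroxylase subunit, fell by 0.83. Of 39 nuclear-encoded genes of oxidative phosphorylation 1 rose and 3 fell (median 0.01), and the falls numbered 1 without any 1 of WT M03, F04, F06 or F09 or Hom F09 or M02. Members included Sdha, a subunit of succinate dehydrogenase, at -0.32, and Cox6c, of cytochrome oxidase, at 0.29. All 11 mitochondrially encoded genes were fitted above 0 (median 0.24). Of these 2 rose, against 3.23% rising among all genes, mt-Nd3 by 0.55 and mt-Co3 by 0.35. Neither passed with the GC and length correction, at 0.19 for mt-Nd3 (limma adjusted p = 0.14) and 0.12 for mt-Co3 (limma adjusted p = 0.42). The difference between these lists and glycolysis was not tested.

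Other biosynthetic genes fell in smaller shares than glycolysis, against 4.37% falling among all genes. Of 23 tested genes of ATF4 targets and serine and folate metabolism, which supplies carbon for nucleotides, 6 fell and 1 rose. Aldh1l2, of mitochondrial folate metabolism, measured 3.38, 2.35, 2.06 and 3.97 CPM in Hom F01, F04, F09 and M02 and 4.52 to 7.83 CPM in WT. Cbs, which makes cystathionine, fell by 0.49, Shmt1 by 0.43 and Phgdh, the entry enzyme of serine synthesis, by 0.31, and Atf5 rose by 0.64. Of 24 cholesterol genes 5 fell and 0 rose, among them Fdft1, squalene synthase (-0.32), and Hsd17b7, of a later step (-0.41). With the removed directions as covariates 4 and 2 members of these lists fell. The folate list had 3 falls without Hom M02. The cholesterol list had 2 without Hom F04 or M02 and 3 without Hom F01 or F09 or without WT F04, F06, F09 or M03.

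Some genes of protein folding and turnover fell too. In the lysosome list 7 of 31 fell and 0 rose, and 25 of 31 were fitted below 0 (median -0.15). Psap, which encodes the saposins that help break down sphingolipids, measured 277, 362, 337 and 363 CPM in Hom F01, F04, F09 and M02 and 444 to 524 CPM in WT (-0.56, SE 0.08, limma adjusted p = 5.3e-04). Atp6v0c, of the proton pump, fell by 0.40, and the lysosomal enzyme Ctsa by 0.39. Of 25 chaperones 6 fell and 0 rose, among them Hspa8 (-0.35) and the chaperonin subunits Cct7 (-0.33) and Cct5 (-0.27). Of 31 proteasome genes 5 fell by 0.25 to 0.30 and 0 rose, and of 37 ribosomal protein genes 4 fell and 0 rose. The fallen shares were 22.6% for the lysosome, 24.0% for chaperones, 16.1% for the proteasome and 10.8% for ribosomal proteins. Among all genes 4.37% fell, and in the highest of 5 bins of WT level 14.4% fell. The median difference of the ribosomal list was 0.02, and the part of level was not tested. Within prefix 14424 the falls numbered 3 in the lysosome list, 1 among the chaperones and 0 in the proteasome. Without Hom F09 there were 3 in the lysosome list, 1 in the proteasome and 0 among ribosomal proteins, and without Hom F01 there were 2 in the lysosome list. The ribosomal falls numbered 1 without Hom M02 and 2 without WT F04 or F06.

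Of 31 tested genes of transport between the endoplasmic reticulum and Golgi 5 fell (3 without Hom F09) and 1 rose. Among all genes 4.37% fell and 3.23% rose. The coat subunit Copg1 ran from 239 to 280 CPM in WT and from 175 to 207 CPM in Hom (-0.54). The cargo receptor Tmed2 rose by 0.51. Sec13, a coat component, fell by 0.37.

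Genes of DNA replication and mitosis were among those that fell. Of 23 genes of origin licensing and the MCM helicase 6 fell and 0 rose. Of 31 DNA synthesis genes 4 fell and 1 rose, and of 30 genes of G2 and mitosis 5 fell and 0 rose. The called shares were 26.1%, 16.1% and 16.7%, against 7.60% of all genes. Among all genes 4.37% fell, and in the highest of 5 bins of WT level 14.4% fell. The part of level in these counts was not tested. In the MCM2-7 helicase, Mcm5 measured 181, 178, 185 and 189 CPM in the Hom libraries and 221 to 333 CPM in WT, and Mcm7 (-0.51) and Mcm3 (-0.41) fell as well. The helicase partners did not all follow: Mcm2 (-0.15), Mcm4 (-0.17) and Mcm6 (0.19) did not pass. The licensing factor Cdc6 fell by 0.51, the helicase activator Cdc45 by 0.39 and Mcm10 by 0.51. Rrm1, a subunit of ribonucleotide reductase, fell by 0.32, and Aurka, a mitotic kinase, by 0.44. In DNA synthesis the 1 rise was Rpa3 (0.27), a subunit of the single-strand binding complex. The DNA synthesis falls numbered 1 without Hom F04 or WT F04 and 2 without Hom F09 or M02. The mitotic falls numbered 1 without Hom F04, 2 without Hom F09 or M02 or without WT F04, F05, F06 or F12, and 2 with the removed directions as covariates.

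Among genes that slow division, a few rose. In the list of G1 cyclins, CDK inhibitors and antiproliferative genes 4 of 29 rose and 0 fell, against 3.23% rising among all genes. Cdkn1c, the CDK inhibitor p57, measured 89.5, 112, 115 and 91.9 CPM in Hom F01, F04, F09 and M02 and 66.4 to 76.4 CPM in WT (0.48, SE 0.12, limma adjusted p = 0.017). Btg1, an antiproliferative gene, rose by 0.37, Rb1, the retinoblastoma protein that holds cells in G1, by 0.57 and Tob1 by 0.73. Each of these 4 had all Hom libraries above all WT libraries. Without Hom F04 or F09 the rises numbered 2.

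**Figure D3:**
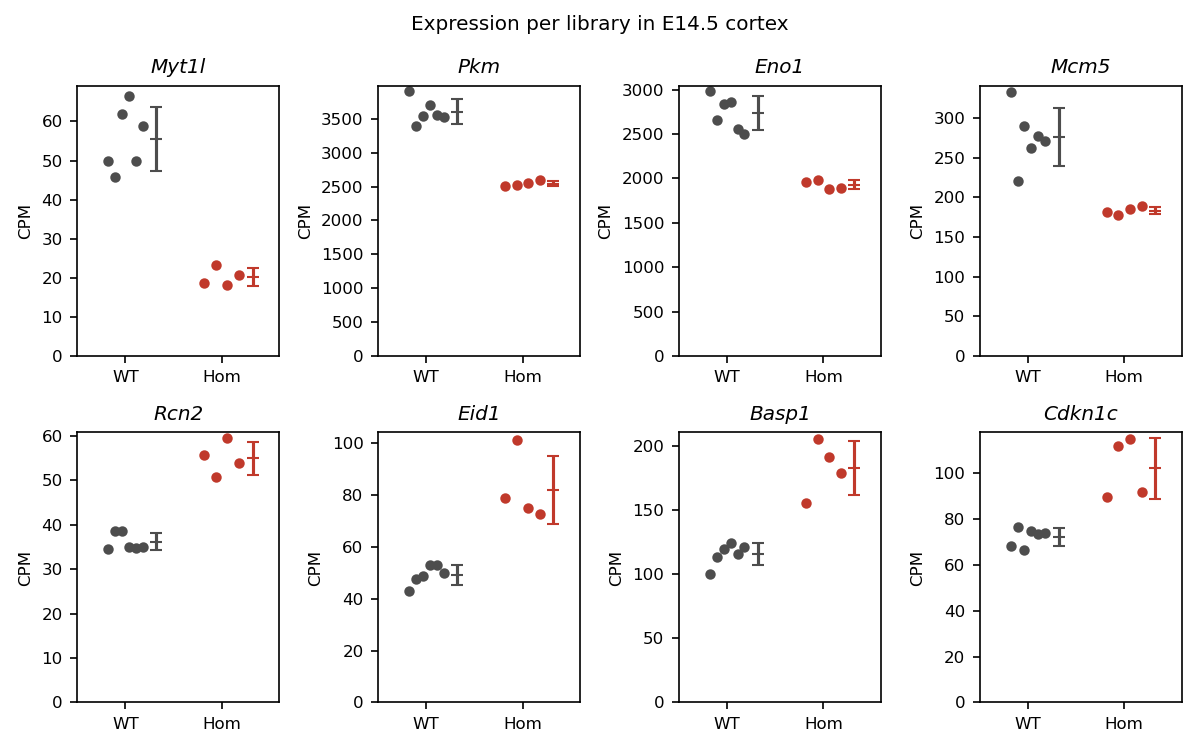
CPM per library (y axis, from 0) for 8 genes in WT (grey, 6 libraries) and Hom (red, 4 libraries), with the mean and SD at the right of each group. Myt1l, Pkm, Eno1 and Mcm5 lie lower in every Hom library than in every WT library, and Rcn2, Eid1, Basp1 and Cdkn1c lie higher.

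Most markers of the cortical lineage did not pass. Of 19 radial glia genes 2 rose and 1 fell, a called share of 15.8% against 7.60% of all genes. Sox2, a factor of neural stem cells, measured 35.3, 36.4, 39.5 and 39.7 CPM in Hom and 19.4 to 26.8 CPM in WT (0.59), and Emx2, a patterning factor of the cortex, rose by 0.56. Prom1, a surface protein of apical progenitors, fell by 0.43, and Pax6 did not pass (-0.11). Of 14 genes of intermediate progenitors and proneural factors 1 rose and 1 fell, and Eomes, their defining factor, had a mean of 80.2 CPM in Hom (n = 4) against 76.6 CPM in WT (SD 6.27, n = 6), a difference of 0.07 that did not pass. Tbr1, of deep-layer neurons, rose by 0.45, the 1 called gene of 13 (7.69%, near the share of all genes). Bcl11b (0.34) did not pass (limma adjusted p = 0.060). In upper layers Lmo4 (0.50) and Pou3f1 (0.68) rose, 2 of 11, against 3.23% rising among all genes. Pou3f1 ran from 4.09 to 8.92 CPM in Hom and from 2.51 to 4.87 CPM in WT, so its groups overlapped. Pou3f1 passed in 14 of 26 alternative fits and Lmo4 in 25. With the GC and length correction Pou3f1 did not pass (limma adjusted p = 0.109). Nor did it with the removed directions as covariates (limma adjusted p = 0.080). Tbr1 passed in 15 of 26 alternative fits.

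Of 29 genes of the cytoskeleton and growth cone 5 rose and 3 fell, a called share of 27.6% against 7.60% of all genes. The risen genes included Basp1, Marcks (0.37) and Marcksl1 (0.40), membrane-bound proteins that act on actin in growth cones, with Nefm, a neurofilament (0.78), and Tmsb10 (0.36). The 3 that fell were tubulins: Tubb3 (-0.26), Tubb2a (-0.45) and Tuba1a (-0.32), and near-identical tubulin genes share reads that the authors' counting may split unevenly. Basp1 measured 155, 205, 192 and 179 CPM in Hom F01, F04, F09 and M02 and 100.1 to 124 CPM in WT. Without 1 library the rises numbered 1 (Hom F01), 2 (Hom F04 or WT F04) or 3 (Hom M02), and the falls 0 without Hom F09. Within prefix 14424 4 of the 29 rose and 0 fell, and without trend and robust settings 1 rose and 0 fell. Among synaptic genes the falls were near the 4.37% of all genes: 1 of 28 presynaptic genes (Sv2a, of synaptic vesicles, -0.58) and 1 of 28 postsynaptic genes (Shank1, a scaffold, -0.56) fell, and 0 of 27 voltage-gated channels passed. A p that misses the threshold does not show that these genes were equal.

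In signalling, Epha7, an ephrin receptor of axon guidance, fell by 0.61 (28.4 to 18.4 CPM). Of 39 guidance genes 2 fell and 1 rose, a called share of 7.69%, near the 7.60% of all genes. Of 21 Notch pathway genes 3 fell and 0 rose, with 1 fall without any 1 of Hom F01, Hom M02, WT F04 or WT F12. Among the 3 were Ncstn (-0.49), of the gamma-secretase that cleaves Notch, and Numb (-0.50), a Notch inhibitor. Id4, an inhibitor of proneural factors, measured 85.5, 84.8, 88.7 and 76.5 CPM in Hom and 53.7 to 68.1 CPM in WT (0.48). Ngfr, a neurotrophin receptor, rose by 0.92 from 3.22 CPM, and Ntrk3, the receptor of neurotrophin-3, fell by 0.44. Gsk3b was the 1 risen gene of 27 in the Wnt list (0.29) and 0 fell, a called share of 3.70%, under that of all genes.

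Corepressor genes are of interest because MYT1L recruits them. Of 25 genes of SIN3, HDAC and REST complexes 4 fell and 2 rose, a called share of 24.0% against 7.60% of all genes. The list's median difference was 0.05, and 14 of 25 were fitted above 0. The falls numbered 1 without any 1 of Hom F04, F09 or M02 or WT F04 or F09, and 2 without Hom F01, WT F06 or WT F12. Hdac6, a mainly cytoplasmic deacetylase of tubulin, measured 45.5, 40.3, 45.2 and 51.9 CPM in Hom and 58.7 to 76.8 CPM in WT (-0.62, SE 0.09, limma adjusted p = 8.1e-04). Hdac1 fell by 0.23, Hdac3 by 0.25 and Hdac4 by 0.34, while Hdac2 rose by 0.42 and Rcor2 by 0.49. Rest itself did not pass (0.26). Of 38 genes of SWI/SNF, CHD and Polycomb complexes 1 rose, Smarca5, and 1 fell, Dpf2, a called share of 5.26%. In 12 tested genes of muscle, liver, cartilage and epithelium, lineages that MYT1L is known to repress in cultured cells, 0 passed (median -0.14), and 16 of 28 members were in the table at all.

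The risen genes with the lowest p belonged to varied functions. Rcn2, a calcium-binding protein of the endoplasmic reticulum, measured 55.7, 50.7, 59.5 and 54.0 CPM in Hom F01, F04, F09 and M02 and 34.6 to 38.6 CPM in WT (0.60, SE 0.09, limma adjusted p = 6.1e-04). Eid1, an inhibitor of differentiation that binds the retinoblastoma protein and p300, measured 78.8, 101, 74.8 and 72.6 CPM in Hom and 43.0 to 52.9 CPM in WT (0.73). Others were Caprin1, an RNA granule protein (0.43), Paip1, which binds poly(A)-binding protein (0.47), Ube2g1, a ubiquitin-conjugating enzyme (0.63), Ndfip1, an adaptor of ubiquitin ligases (0.61), Csnk1a1, casein kinase 1 (0.43), Tomm20, a mitochondrial import receptor (0.61), Srp9, of the signal recognition particle (0.46), Uri1 (0.73) and BC005537 (0.45). Besides genes named above, the fallen genes with the lowest p were Smyd5, a lysine methyltransferase (-0.55), Taf6, a subunit of TFIID (-0.47), Abcf2 (-0.44), Tuba1c (-0.51) and 1700037H04Rik (-0.49). Of the 944 called genes 156 were called in every one of the 26 alternative fits that tested them, 58 higher and 98 lower, and these include Myt1l and the other genes named here for their lowest p.

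**Figure D4:**
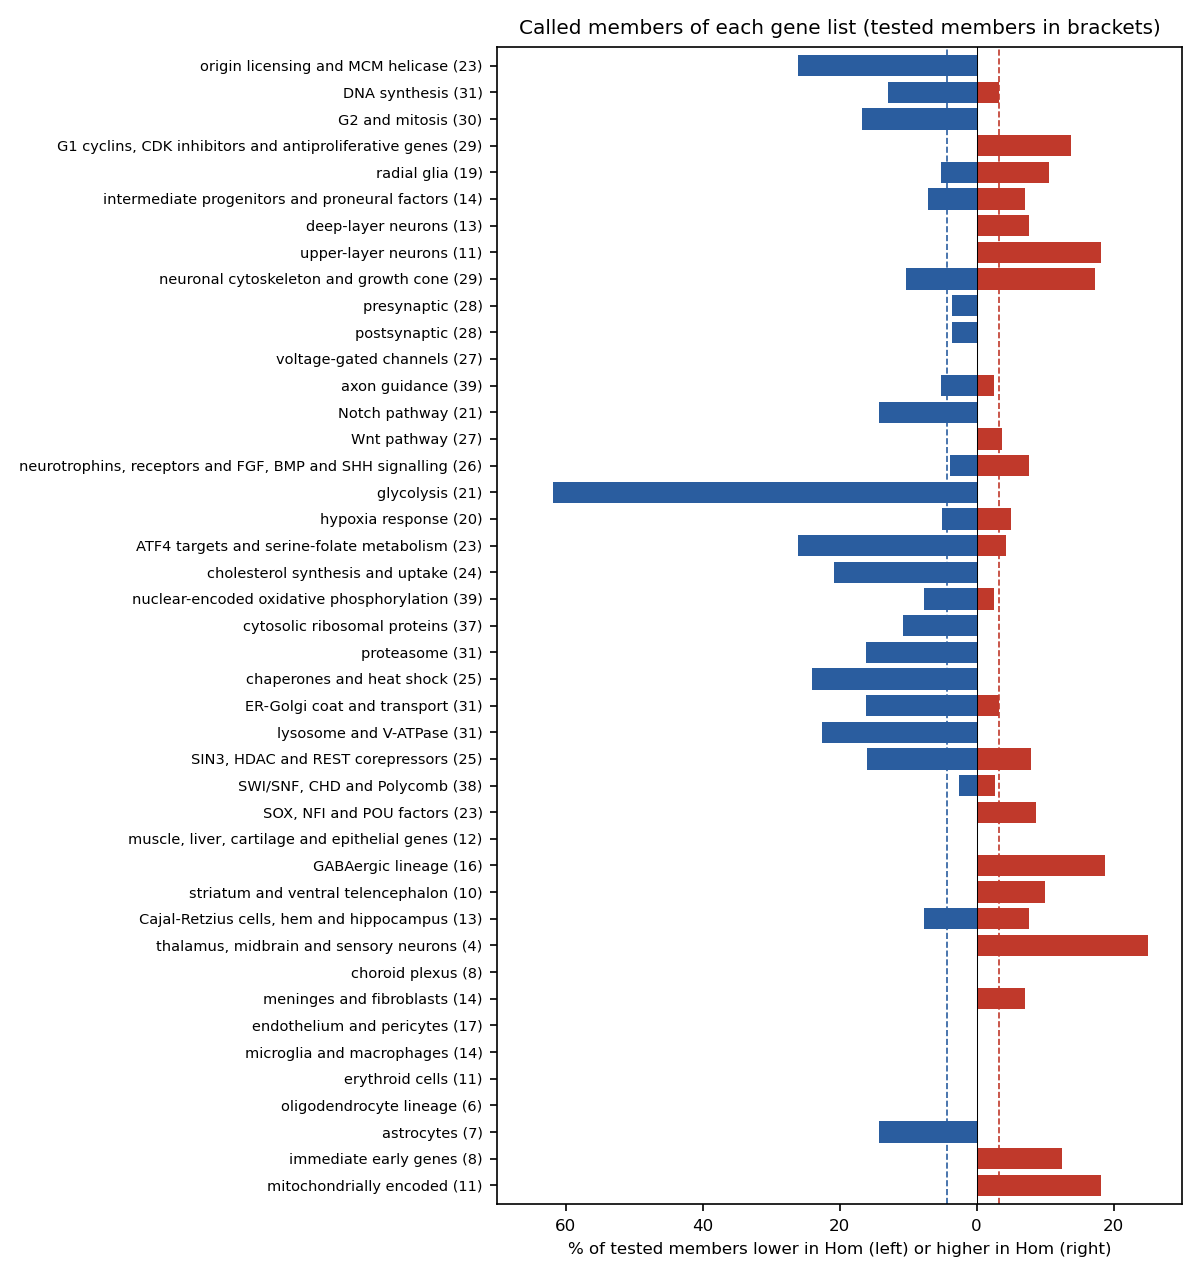
For each of the 43 gene lists (tested members in brackets), the bar to the left is the percentage of tested members that fell in Hom and the bar to the right the percentage that rose, with dashed lines at the shares among all genes, 4.37% and 3.23%. The glycolysis bar reaches 61.9%, and several lists of other cells have no bar.

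Markers of other cells were examined in 11 lists, of which the GABAergic lineage had the highest median difference. Of its 16 tested genes 3 rose, against 3.23% rising among all genes, and 15 were fitted above 0 (median 0.47). Summed over the list, CPM came to 252 in Hom F01, 228 in M02, 200 in F04 and 145 in F09, and to 126 to 168 in the WT libraries, so 3 Hom libraries lay above the WT range and F09 within it. Sp9, a factor of interneuron precursors, measured 5.06, 2.56, 2.23 and 6.76 CPM in Hom F01, F04, F09 and M02 and 0.619 to 2.19 CPM in WT. Dlx1 measured 37.6 and 27.5 CPM in F01 and M02, 16.5 and 13.7 CPM in F04 and F09, and 8.07 to 15.6 CPM in WT, so its groups overlapped. Maf rose by 0.83, with each Hom library above each WT library. Gad1 (0.56), Gad2 (0.38), Dlx2 (0.51) and Dlx5 (0.43) did not pass. Nor did the 2 most abundant members in WT, Sst (-0.09) and Sp8 (0.13). Sst, with means of 30.1 CPM in Hom and 32.2 CPM in WT, was the 1 member fitted below 0. Without F01 and M02 0 of the 16 passed and the median was 0.27. In the list of striatum and ventral telencephalon 1 of 10 genes rose and 0 fell (median 0.15), a called share near the 7.60% of all genes. Its summed CPM was 189 in Hom F01, 166 in F04, 151 in F09 and 161 in M02 and 121 to 147 in WT. All 4 Hom sums lay above all WT sums. Most of each sum was Meis2, which ran from 119 to 145 CPM in Hom and from 95.0 to 128 CPM in WT. Meis2 overlapped between the groups and did not pass (0.24). The risen gene was Ppp1r1b, of striatal projection neurons, at 4.27 to 5.91 CPM in Hom and 2.28 to 3.91 CPM in WT (0.72). Isl1, a factor of striatal precursors singled out after its values were seen, was at 16.4 and 15.95 CPM in F01 and M02, at 0.648 and 1.35 CPM in F04 and F09, and at up to 5.11 CPM in WT, and did not pass. The part of such ventral forebrain RNA in the interneuron values was not tested.

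Few markers of neighbouring tissue passed, and several varied within groups. Ttr, the main product of the choroid plexus, had a mean of 2394 CPM in Hom against 2441 CPM in WT, and the summed choroid list ran from 1473 to 4130 CPM in WT and from 1652 to 2988 CPM in Hom. Of 17 endothelial and pericyte genes 0 passed, although 15 were fitted below 0 (median -0.32), with summed CPM of 208 to 394 in WT and 213 to 343 in Hom. Summed red cell genes ran from 8393 to 16305 CPM in WT and from 7449 to 12415 CPM in Hom, with 0 of 11 called. Of 14 meningeal genes Lox rose, and of 4 genes of thalamus, midbrain and sensory neurons Pou4f1 rose. Among all genes 3.23% rose. Pou4f1 measured 0.786, 1.54, 7.67 and 2.52 CPM in Hom F01, F04, F09 and M02 and 0.204 to 0.850 CPM in WT. Its groups overlapped, and each WT library lay below the filter of 1 CPM. It passed in 21 of the 25 alternative fits that tested it. Microglial genes had 0 of 14 called and the oligodendrocyte lineage 0 of 6. The 1 fallen astrocyte marker of 7 was Aldoc, which is also a glycolytic enzyme. Immediate early genes, which also respond to how tissue is handled, summed to 47.97 CPM in Hom F01, 57.2 in F04, 55.4 in F09 and 49.1 in M02 and to 39.8 to 42.4 CPM in WT, so the groups did not overlap. Of these 8 genes 7 were fitted above 0 (median 0.38) and Fosl2 rose (0.68), and the part of handling in the genotype difference was not tested. What RNA of these other cells contributes to the called genes was not tested.

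Base composition and level moved with the direction of change. The median GC content of the longest transcript was 44.7% in risen, 52.5% in fallen and 49.5% in uncalled genes. From the lowest to the highest of 5 GC bins the share of genes that rose went from 7.12% to 1.65%, and the share that fell went from 0.684% to 4.43% with a peak of 8.62% in the 4th bin. The median WT level was 27.5 CPM in risen, 108 CPM in fallen and 13.7 CPM in uncalled genes. Of the genes in the highest of 5 level bins 14.4% fell and 4.67% rose. Their part in the calls was not tested beyond the correction given above.

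**Figure D5:**
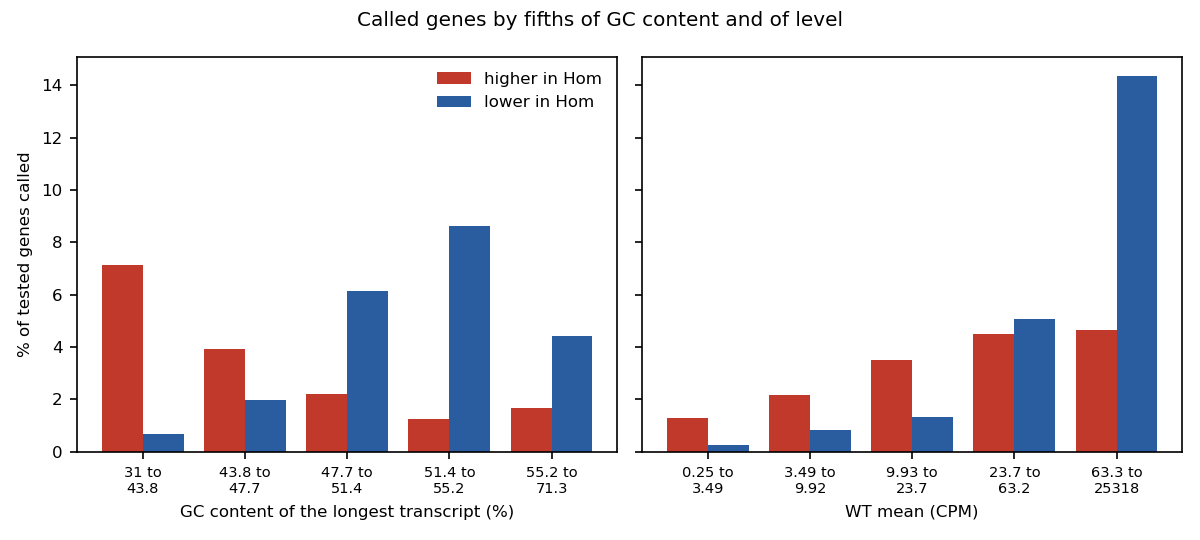
The percentage of tested genes that rose (red) or fell (blue) in Hom (y axis) in 5 bins of GC content of the longest transcript (left panel, %) and of WT mean level (right panel, CPM). Risen genes are most frequent at low GC content, at 7.12%, and fallen genes at high level, at 14.4%.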

How the data were processed

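RNA was measured in 16 E14.5 cortex libraries, prepared by a SMARTer low-input kit after Zymo extraction, per the labels' protocols. The tools named are HTSeq, STAR, Trimmomatic and Bowtie2, with build mm10, per the submitters' processing notes, with versions and strand handling not given in the sources used here. The authors deposited log2 CPM after RUVr, which removes unwanted variation estimated from residuals, per the file headers and the values (prior count 2). Inverting it gave whole numbers for 100% of values (tolerance 0.01), with totals of 27827467 to 30811856 per Hom or WT library. These are adjusted numbers, not reads, so no count test was used and depth is unknown. A step of 1 was worth 0.0339 CPM and the floor of 3 steps 0.102 CPM, covering counting error only.

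Of 13846 genes, 13840 matched GENCODE vM21 (GRCm38), the source of coordinates, GC content and length. Genes reaching 1 CPM in 4 or more libraries were fitted on log2(CPM + 0.5), a scale that understates changes of low genes, with limma 3.58.1 in R 4.3.3 (trend and robust; genotype and labelled sex; all 16 libraries in 1 fit). Adjustment by RUVr removed 2 directions among the libraries, degrees of freedom that this fit does not count, so its p-values are too small by an unknown amount. The code was run on simulated data, which does not bear on that limit. P-values measure the spread between embryos, and litters are not given.

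Members and gene lists were chosen with earlier results of these data known. Named genes were Myt1l, the 12 risen and 12 fallen protein-coding genes with the lowest p whose groups did not overlap and whose mean was at least 2 CPM, the 3 called genes of each list with the lowest p, and the 2 most abundant of each list of other cells. Some genes that met this rule are not reported here. Other genes were named after their values were seen, as were the motifs shown. Figures were drawn with matplotlib 3.10.9.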

Additional observations from a re-analysis of the deposited data

Results flagged for a closer look

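Among 250 groups of library values of the named genes reported here, 10 had 1 library set far from the rest, by Dixon's criterion, and chance alone gives about 1 in 20. Among fallen genes, Copg1 was at 207 CPM in Hom M02 (next 178) and at 239 CPM in WT F05 (next 266), in both cases nearer to the other genotype. Fdft1 was at 477 CPM in WT F05, and Kif20a, a mitotic kinesin, at 128 CPM in WT F04. Tubb3 was at 3694 CPM in Hom F09, the next Hom library being at 4212 CPM. Caprin1, a risen gene, was at 97.6 CPM in WT F12.

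Among genes that were not called, Reln was at 32.6 CPM in WT F05, Esam, an endothelial gene, at 11.5 CPM in WT F06, the embryonic globin Hbb-y at 1966 CPM in Hom F01 and Cnp at 5.97 CPM in Hom F04. Esam and Hbb-y are markers of vessels and red cells, whose summed levels also varied within groups.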

How the results depend on the processing

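Of the 944 called genes, 943 kept their sign in all 26 alternative fits chosen at the outset, and 156 stayed called wherever tested. Calls numbered 365 (168 higher, 197 lower) within prefix 14424, 468 (223 and 245) without trend and robust settings, and 511 (198 and 313) with the removed directions as covariates. Higher calls numbered 624 with only Hom and WT libraries and 231 with the GC and length correction. Leaving out 1 library at a time gave 489 to 940 calls (159 to 387 higher, 278 to 553 lower), falling by over 1.5 times without Hom F01 (522), F04 (489), F09 (501), M02 (592) or WT F04 (495). Genes with no overlap between groups then numbered 1287 to 1847, the most without Hom M02. That count cannot fall when a library is left out, so its range is no measure of stability. After seeing the data 2 alternatives were added: without Hom F01 and M02, 162 genes were called (64 and 98), and with the removed directions as covariates but no trend or robust settings, 0 were called (0 higher, 0 lower, and 2255 at an unadjusted p under 0.05). The design's fit was kept as the reported one. No paired analysis was possible because the numbers 4 and 9 that Hom and WT share are animal numbers under different identifier prefixes. With the identifier prefix as a block, 809 genes were called. Depth is unknown, so what it limits cannot be stated.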
